A study of Mus musculus with 6 samples.

Results

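The genes described here are the klotho family (Kl, Klb and Lctl), the 4 fibroblast growth factor (FGF) receptor genes Fgfr1 to Fgfr4, and the ligand genes Fgf21, Fgf1 and Fgf10. They are 10 of the 40428 features in a table of read counts from mouse subcutaneous white adipose tissue, and all 10 were found in it, on 1 line each. The members were chosen by name with earlier results of the same comparison known, so their differences between the groups are given as a description. No p is given for a member, and the threshold of the fit over all genes is used only to count them. The gene lists used further below were also chosen with earlier results known, so their counts are a description too. Of the 10, 8 passed the filter on low counts, and Kl and Fgf21 did not.

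RNA of whole tissue was sequenced from 6 C57BL/6J mice kept at room temperature on regular chow. The 3 controls carried floxed alleles of Nampt, the gene of nicotinamide phosphoribosyltransferase, which salvages nicotinamide for NAD. The 3 knockouts (ANKO) carried floxed Nampt together with Cre recombinase under the adiponectin promoter, which acts in adipocytes, so the vascular, stromal, immune and epithelial cells of the tissue should keep the gene. The labels give neither the age nor the sex of the mice. Library totals were 19748962 to 23860596 counts. Nampt stood at 83.6 to 93.0 CPM (counts per 1e6 scaled by library size) in the controls and at 47.0 to 50.2 CPM in ANKO (log2 fold change -0.85, SE 0.0776, adjusted p = 0.00416 by edgeR's quasi-likelihood test). All 10 adipocyte markers had counts in every library. Their summed level was 7032 to 11241 CPM in controls and 3724 to 6144 CPM in ANKO. Of the 10, 3 were past the test as lower, against 1.1% of all tested genes. Fewer cells of a type and less RNA per cell cannot be told apart in such bulk tissue. Markers of other cells also differed between libraries. Skeletal muscle markers summed to 1255 to 8143 CPM in controls and 77.2 to 15625 CPM in ANKO, and skin markers to 98.2 CPM in ANKO 2 against 23.6 to 28.7 CPM in the other libraries.

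FGF21 is an endocrine growth factor that circulates because it binds heparan sulfate weakly. To signal it needs an FGF receptor, in fat mainly FGFR1, together with the membrane protein beta-klotho, the product of Klb. Alpha-klotho, the product of Kl, plays the matching part for FGF23 in the kidney. Lctl encodes another relative, also called gamma-klotho or klotho/lactase-phlorizin hydrolase-related protein, whose extracellular part belongs to the same glycoside hydrolase family. FGF1 and FGF10 are local ligands that bind heparan sulfate. FGF10 comes from stromal cells and acts mainly on the epithelial splice form of FGFR2, and Fgf1 is a known target of PPARG in adipocytes.

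The 2 members that stood furthest apart between the groups were Lctl and Fgf21, and the bases around their start sites are shown because the regulation of Fgf21 by stress is known to run through this region. Promoters of 300 bases, from 250 bases before the start site to 50 after it, were taken from RefSeq on GRCm38.p6, where 8 of the 10 members had an entry and Fgfr1 and Fgf1 had none. They are written 5′ to 3′ on the strand of the gene, Fgf21 from the minus strand of chr7:45615441-45615740 and Lctl from the plus strand of chr9:64116897-64117196, with motif matches in capitals.
Fgf21: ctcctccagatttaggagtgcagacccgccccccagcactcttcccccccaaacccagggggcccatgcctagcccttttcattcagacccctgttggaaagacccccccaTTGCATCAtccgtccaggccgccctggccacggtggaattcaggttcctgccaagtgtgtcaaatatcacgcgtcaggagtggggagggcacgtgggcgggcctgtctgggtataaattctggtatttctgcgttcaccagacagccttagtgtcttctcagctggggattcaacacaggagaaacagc
Lctl: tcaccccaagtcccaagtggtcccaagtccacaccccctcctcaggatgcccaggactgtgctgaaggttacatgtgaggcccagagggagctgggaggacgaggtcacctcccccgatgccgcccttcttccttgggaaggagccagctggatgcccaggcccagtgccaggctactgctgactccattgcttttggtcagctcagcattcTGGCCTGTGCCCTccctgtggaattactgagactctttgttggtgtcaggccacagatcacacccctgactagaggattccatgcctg

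Searched on both strands were TGATGNAA, the composite element bound by ATF4 with a C/EBP partner, TGACGTCA, the cyclic AMP response element, and the pair of spaced nuclear receptor sites known as DR1, in a strict form, AGGTCANAGGTCA, and a relaxed form, AGGNCANAGGNCA. The composite element was matched in the Fgf21 window 139 to 132 bases before the start, on the opposite strand, and in no other member's window. It was present in 3.97% of all 32851 promoters of that length. In the Lctl window the relaxed DR1 form was matched 38 to 26 bases before the start, on the opposite strand, and no other of the 4 motifs. These distances are from the start used for the window, at 64117147. The RefSeq gene begins upstream of it, at 64117123, and the match lies closer to that position. The relaxed form was present in 0.381% of all promoters, the strict form in 0.0396% and the cyclic AMP element in 1.79%. No motif was matched in the windows of Klb, Kl, Fgfr2, Fgfr3, Fgfr4 and Fgf10. A match describes letters only, and no binding was measured here.

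Lctl (chromosome 9, 64117147 to 64138118, plus strand) was higher in every ANKO library. Its levels were 8.58, 8.62 and 12.5 CPM in controls 1, 2 and 3 and 48.3, 109 and 76.3 CPM in ANKO 1, 2 and 3. The lowest ANKO mouse thus lay well above the highest control, and ANKO 2 was the highest of all. The mean was 9.91 ± 2.26 CPM in controls and 77.8 ± 30.3 CPM in ANKO (SD, n = 3), a 7.86-fold difference with a log2 fold change of 2.97 (SE 0.344). Among the 16879 tested genes that averaged 1 CPM or more, Lctl ranked 12 from the top by log2 fold change. By mean CPM it stood at percentile 45.3 of all tested genes in controls and at percentile 86.1 in ANKO.

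In the fit over all genes, Lctl was the 1 of 8 tested members past an adjusted p of 0.05, as a gene higher in ANKO, against 1.59% of all 19272 tested genes in either direction, 0.488% as higher and 1.1% as lower. Nothing is read from that count, because this comparison was known when the genes were chosen. By DESeq2 the count included Fgf10 as well, as lower in ANKO. The edgeR count did not include Lctl without any 1 control, without ANKO 3, or when no low-count filter was used. Its log2 fold change in the 6 fits that left out a library lay between 2.65, without ANKO 2, and 3.24, without ANKO 1. Exons of Lctl share 254 bases with exons of Zwilch, a kinetochore gene on the opposite strand, and the strand setting of the counting is not given in the sources used here. Zwilch itself had 53 to 119 counts in the 6 libraries, while Lctl had 171 to 243 in controls and 1150 to 2512 in ANKO. Summed macrophage markers were also higher in ANKO, at 477 to 555 CPM in controls and 763 to 977 CPM in ANKO. Of the 10 markers 4 were past the test as higher, against 0.488% of all tested genes, and none was at 0. Within the groups their order was not that of Lctl, with the lowest sum in control 3 and the highest in ANKO 3. The summed skin markers were highest in ANKO 2, like Lctl, and so were 6 of the 8 genes (Krt10, Krt1, Lor, Dsg1a, Sbsn and Krtdap). Krt15 was highest in ANKO 3, at 12.5 CPM against 9.75 CPM in ANKO 2, and lay above the controls in all 3 ANKO libraries, and Ivl was highest in control 2, at 1.71 CPM. Summed adipocyte markers were lower in ANKO, and within ANKO they were highest in ANKO 2 (6144 CPM) and lowest in ANKO 1 (3724 CPM), as was Lctl. Relative to that sum, Lctl amounted to 0.0955% to 0.122% in controls and to 1.30% to 1.77% in ANKO. The part of macrophage, skin and adipocyte RNA in the Lctl difference was not tested, and without ANKO 2 the log2 fold change was 2.65.

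**Figure D1:**
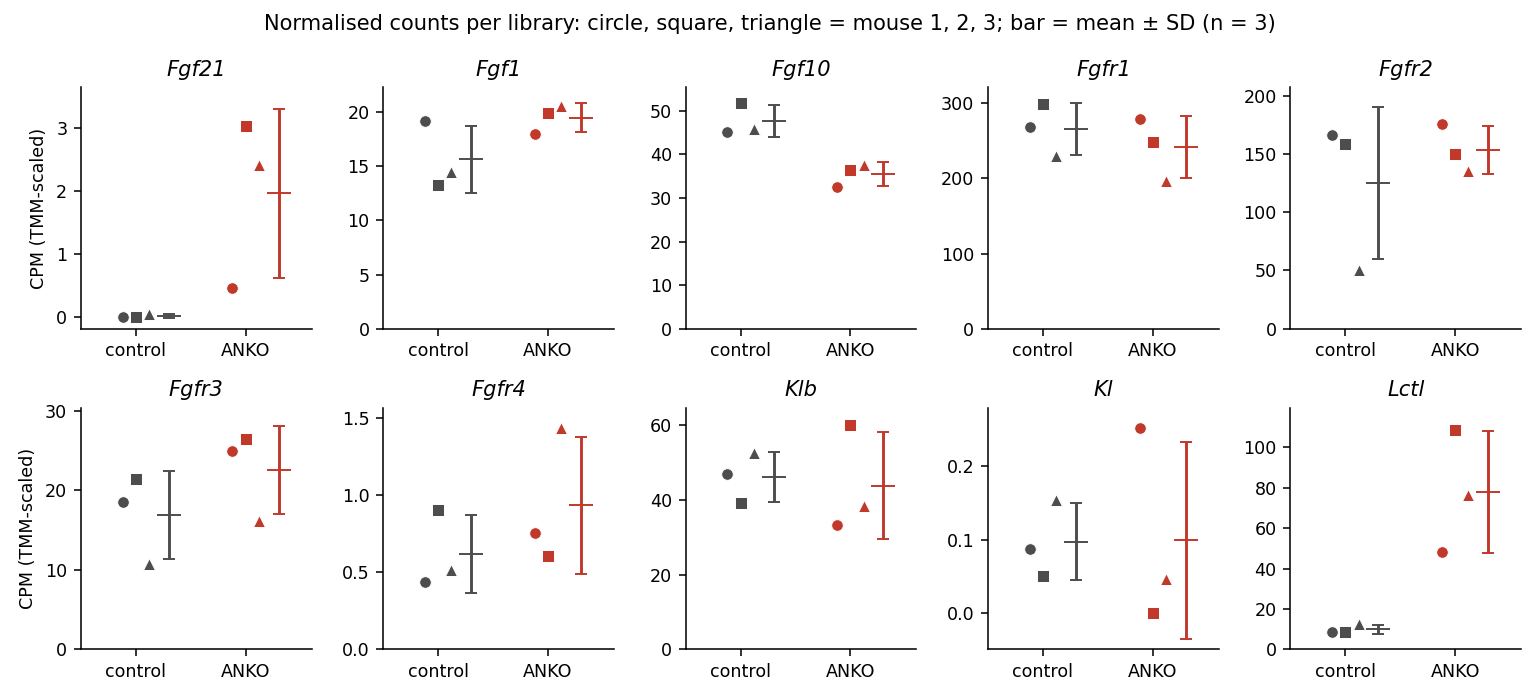
Normalised counts (CPM, vertical axis, 1 scale per gene) of the 10 genes in the 3 control and 3 ANKO libraries, with circle, square and triangle for mouse 1, 2 and 3 and a bar for mean ± SD. The ANKO points lie above all control points for Lctl and Fgf21 and below them for Fgf10, and the groups overlap for the other 7 genes.

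Klb (chromosome 5, 65348314 to 65384007, plus strand), the FGF21 coreceptor gene, had overlapping levels in the groups. Controls stood at 47.1, 39.2 and 52.6 CPM and ANKO at 33.3, 60.1 and 38.3 CPM. The highest and the lowest of the 6 values were both ANKO mice. The log2 fold change was -0.08 (SE 0.232), and it ran from -0.37 without ANKO 2 to 0.10 without ANKO 1. Relative to the 10 summed adipocyte markers, Klb amounted to 0.670%, 0.434% and 0.468% in controls and to 0.895%, 0.979% and 0.749% in ANKO. On that scale the groups did not overlap, with ANKO higher. The marker sum itself was lower in ANKO, so a gene of equal CPM in both groups would also stand higher there. The same held for Fgfr1, at 2.05% to 3.82% of that sum in controls and 3.86% to 7.49% in ANKO. Kl, the alpha-klotho gene, had 2, 1 and 3 counts in controls and 6, 0 and 1 in ANKO, at or near the limit of 3 counts that a count of 0 allows. Its ratio of ANKO to control was 1.06 with an exact 95% interval of 0.305 to 3.81, which covers counting error only, and 0.232 without ANKO 1.

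The makeup of the klotho family differed between the groups when levels were set per length, as CPM per kilobase of annotated exon. Lctl made up 24.1%, 27.7% and 29.4% of the family's summed level in controls and 71.6%, 76.0% and 77.7% in ANKO. The ratio of Lctl to Klb per kilobase was 0.318 to 0.416 in controls and 2.53 to 3.48 in ANKO. Klb was therefore the most abundant klotho gene in each control and Lctl in each ANKO mouse. The summed level of the family was 11.9 to 16.4 CPM per kilobase in controls and 25.9 to 55.0 in ANKO.

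The values of all 4 receptor genes overlapped between the groups. Fgfr1 (chromosome 8, 25513654 to 25575718, plus strand), the main receptor of FGF21 in fat, stood at 269, 299 and 229.9 CPM in controls and 279, 249 and 197 CPM in ANKO. Its log2 fold change was -0.14 (SE 0.150), and the groups overlapped over most of their range. Fgfr3 had 10.7 to 21.4 CPM in controls and 16.2 to 26.5 CPM in ANKO, with a log2 fold change of 0.41 (SE 0.291). Fgfr4, best known as the receptor of FGF15 in liver, was rare at 0.438 to 0.907 CPM in controls and 0.606 to 1.44 CPM in ANKO. Exons of Fgfr1 share 164 bases with an antisense gene, Gm16159, which had 92 to 182 counts against 4241 to 6639 for Fgfr1.

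Fgfr2, whose epithelial splice form receives FGF10, differed more within the controls than between the groups. It stood at 167 and 159 CPM in controls 1 and 2, at 50.2 CPM in control 3, and at 176, 150.0 and 135 CPM in ANKO. Control 3 alone was low, and the other 5 libraries lay close together. The log2 fold change was 0.29 (SE 0.469) with all libraries and -0.07 (SE 0.121) without control 3. Mammary epithelial markers were also lowest in control 3, where the 14 genes summed to 272 CPM. In the other controls the sum was 1056 and 1895 CPM, and in ANKO it was 822 to 1238 CPM. Of the 14 markers, 12 had counts in every library, the milk genes Csn2, Csn1s1 and Wap were under 1 CPM in each, and of 11 tested between the groups by edgeR none was called and none had an unadjusted p under 0.05. Over all tested genes 1.59% were called. Fgfr3 was lowest in control 3 as well, at 10.7 CPM, and its log2 fold change without that library was 0.18. The part of epithelial RNA in the level of Fgfr2 was not tested. GENCODE M21 extends Fgfr2 from 130162451 to 133123350 on chromosome 7, with 314 exon bases shared with Ctbp2, while RefSeq ends it at 130266808. How such shared bases were counted is not given in the sources used here.

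**Figure D2:**
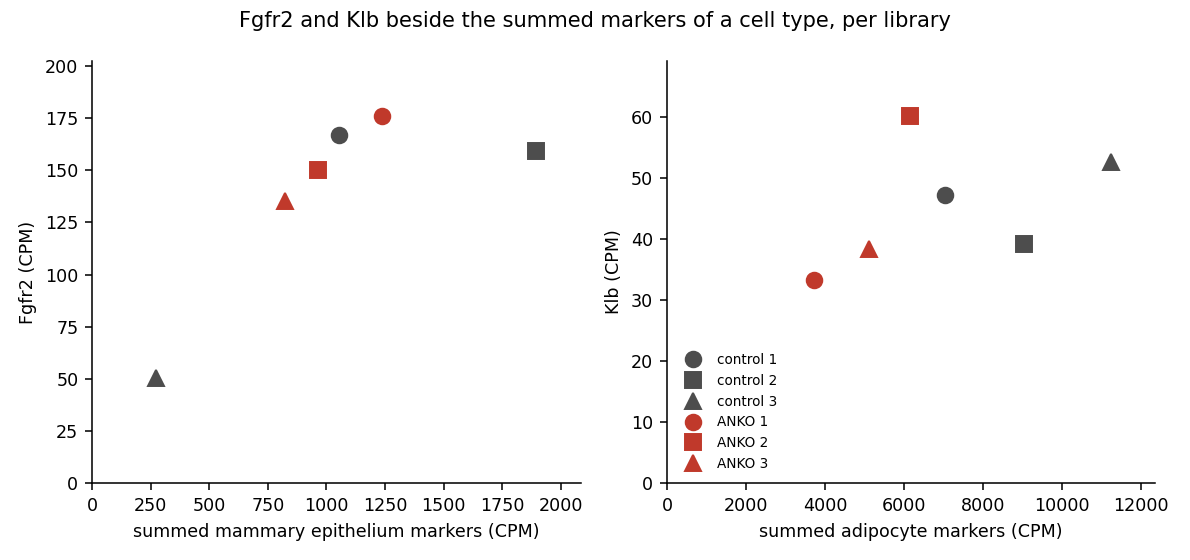
CPM of Fgfr2 against the summed CPM of 14 mammary epithelial markers (left) and of Klb against the summed CPM of 10 adipocyte markers (right), 1 point per library, grey for control and red for ANKO. Control 3 has the lowest Fgfr2 (50.2 CPM) and the lowest epithelial sum (272 CPM), and the ANKO libraries have the 3 lowest adipocyte sums, with Klb between 33.3 and 60.1 CPM.

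Set per kilobase of exon, Fgfr1 was the leading receptor gene in every library, with 59.1%, 61.9% and 78.2% of the summed receptor level in controls and 57.7%, 57.8% and 55.9% in ANKO. Fgfr2 followed with 35.0%, 31.4% and 16.3% in controls and 33.3% to 36.7% in ANKO, and Fgfr4 with at most 1.14%. The ratio of Klb to Fgfr1 was 0.284 to 0.496 in controls and 0.259 to 0.525 in ANKO, so the 2 parts of the FGF21 receptor kept overlapping proportions. Over all 10 genes the order in controls was Fgfr1 (26.9 ± 3.52 CPM per kilobase), Fgfr2 (12.1 ± 6.31), Fgf10 (10.4 ± 0.791), Klb (10.2 ± 1.48), Lctl (3.80 ± 0.869), Fgf1 (2.86 ± 0.565), Fgfr3 (2.36 ± 0.774), Fgfr4 (0.175 ± 0.0710), Fgf21 and Kl. The ranges of neighbours overlapped from Fgfr2 to Klb, from Lctl to Fgfr3 and between Fgf21 and Kl, so their order there is not firm. In ANKO, Lctl came first at 29.9 ± 11.6 CPM per kilobase, with a range that overlapped that of Fgfr1 at 24.5 ± 4.19. Then came Fgfr2 (14.9 ± 2.00), Klb (9.65 ± 3.13) and Fgf10 (7.72 ± 0.591), followed by Fgf1 (3.57 ± 0.244), Fgfr3 (3.15 ± 0.775) and Fgf21 (2.07 ± 1.41), with overlapping neighbours inside each of these sets and none between them. This top place depends on the length used. With the longest annotated transcript in place of all exons, Fgfr1 stood at 47.9 and Lctl at 35.8 in ANKO.

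**Figure D3:**
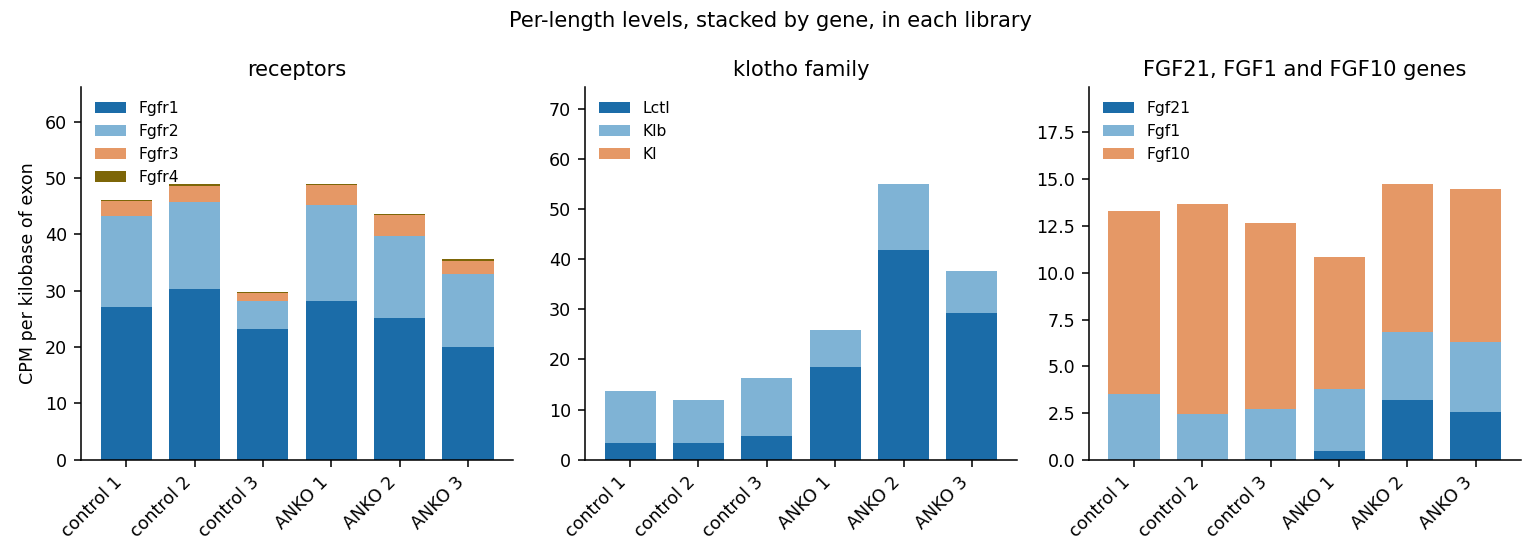
Stacked per-length levels (CPM per kilobase of annotated exon, vertical axis) in each of the 6 libraries for the receptor genes, the klotho family and the ligand genes Fgf21, Fgf1 and Fgf10. Lctl fills 71.6% to 77.7% of the klotho bar in ANKO and 24.1% to 29.4% in controls, while Fgfr1 is the largest part of every receptor bar.

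Fgf21 (chromosome 7, 45613886 to 45615490, minus strand) was nearly absent from the controls and present in each ANKO library. Controls 1, 2 and 3 held 0, 0 and 1 counts, and ANKO 1, 2 and 3 held 11, 70 and 52. The counts of 0 allow levels of up to 0.131 and 0.151 CPM in controls 1 and 2. In ANKO the gene reached 0.462, 3.03 and 2.42 CPM, so ANKO 1 lay above the controls but far below the other ANKO mice, and 8.27% of the 133 ANKO counts came from it. The ratio of ANKO to control over the summed counts was 121, with an exact 95% interval of 21.3 to 4803 that covers counting error only. It was 76.3 without control 1 and 170.0 without ANKO 1, and without control 3 no ratio exists, as both other controls were at 0. Fgf21 fell out of the main fit through its low counts, and the gene would pass a looser filter only through the ANKO mice. ANKO 2 had the highest values of both Lctl and Fgf21 and ANKO 1 the lowest of the 3, an order that rests on 3 mice. Macrophage, skin and adipocyte markers differed as described beside Lctl, and their part in the Fgf21 difference was not tested.

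The local ligand genes differed less. Fgf10 (chromosome 13, 118669791 to 118792115, plus strand) was 45.2, 51.8 and 45.9 CPM in controls and 32.4, 36.4 and 37.6 CPM in ANKO. Every ANKO value lay below every control value, and the log2 fold change was -0.42 (SE 0.0982), between -0.47 and -0.34 after leaving out any 1 library. With Lctl it made 2 of 8 tested members whose groups did not overlap, against 19.4% of all tested genes, and nothing is read from that count. Summed preadipocyte and fibroblast markers overlapped between the groups, at 5839 to 7512 CPM in controls and 5889 to 9833 CPM in ANKO. Per marker sum, Fgf10 was 0.690% to 0.774% in controls and 0.381% to 0.619% in ANKO. Exons of Fgf10 overlap those of the antisense gene Gm16263, which had 28 to 72 counts against 772 to 1032 for Fgf10.

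Fgf1 stood at 19.1, 13.3 and 14.5 CPM in controls and 18.0, 19.9 and 20.5 CPM in ANKO. Control 1 lay within the ANKO range and the other 2 controls below it, and the log2 fold change was 0.32 (SE 0.156). Of the summed per-length level of these 3 ligand genes, Fgf10 supplied 73.7% to 82.2% in controls and 53.7% to 65.1% in ANKO. Fgf21 supplied at most 0.428% in controls and 4.49%, 21.6% and 17.5% in ANKO 1, 2 and 3.

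Among the other 19 FGF genes, 8 were tested, and 3 fell while none rose, with an unadjusted p under 0.05 in 6. Over all tested genes 1.1% fell and 0.488% rose. Fgf2, the basic FGF made by many stromal cells, fell from 9.55, 12.2 and 14.1 CPM in controls to 6.18, 5.20 and 6.27 CPM in ANKO (log2 fold change -1.02, SE 0.186, adjusted p = 0.0425). Fgf11 fell from 16.2, 15.1 and 14.3 CPM to 6.97, 9.27 and 6.60 CPM (log2 fold change -0.998, SE 0.165, adjusted p = 0.0297). Fgf14 fell from 2.41, 2.32 and 2.58 CPM to 0.840, 0.866 and 0.836 CPM (log2 fold change -1.52, SE 0.269, adjusted p = 0.0393). In all 3 genes the groups did not overlap. Over the 8 tested genes they did not overlap for 2 higher and 4 lower in ANKO, against 19.4% of all tested genes. The 2 higher genes, named after their values were seen, were Fgf7 and Fgf16. They were not called by edgeR (log2 fold change 0.51 and 2.24, adjusted p = 0.386 and 0.163). Fgf16 was rare, at 0.0876 to 0.258 CPM in controls and 0.465 to 1.01 CPM in ANKO. Fgf11 and Fgf14 belong to the FGF homologous factors, which stay inside the cell, bind sodium channels and are not ligands of the receptors described above. The median over the 8 tested genes was -0.33 on the log2 scale, against 0.00 over all tested genes. The calls were lost with single libraries. Fgf14 was not called after leaving out any 1 of the 6, Fgf11 was called only without ANKO 2 and Fgf2 only without control 1, with highest adjusted p = 0.135, 0.125 and 0.136. The other 11 FGF genes were under 1 CPM in each library, and Fgf15, the ligand of the FGFR4 and beta-klotho pair in the gut and liver axis, had 0 counts in all 6, which allows up to 0.126 to 0.155 CPM.

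Downstream of the receptors, none of 23 tested adaptor and ERK cascade genes passed the test by edgeR, where 3 had an unadjusted p under 0.05 and DESeq2 called 1. Their median log2 fold change was -0.01. Over all tested genes edgeR called 1.59%, so 0 calls in this list and the next 2 lie near that share, and nothing is read from them. The share of all tested genes with an unadjusted p under 0.05 is not given here. Among 20 tested feedback and response genes of the ERK cascade, such as the Sprouty and Spred inhibitors and the ETS factors, none passed by edgeR or DESeq2 and 6 had an unadjusted p under 0.05. Their median was 0.22, and the gene with the smallest p was Spred1, at 39.4 to 56.8 CPM in controls and 64.3 to 67.2 CPM in ANKO (log2 fold change 0.41, SE 0.131, adjusted p = 0.218). Control 3 was the lowest control for Spred1, as for Fgfr2. Of 16 tested FGF binding proteins and heparan sulfate coreceptors none passed by edgeR, 6 had an unadjusted p under 0.05 and DESeq2 called 1, with a median of 0.27. The smallest p there was that of the glypican gene Gpc3, at 27.1 to 29.6 CPM in controls and 32.3 to 47.8 CPM in ANKO (log2 fold change 0.56, SE 0.147, adjusted p = 0.136). It passed when ANKO 2 was omitted (adjusted p = 0.0367).

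**Figure D4:**
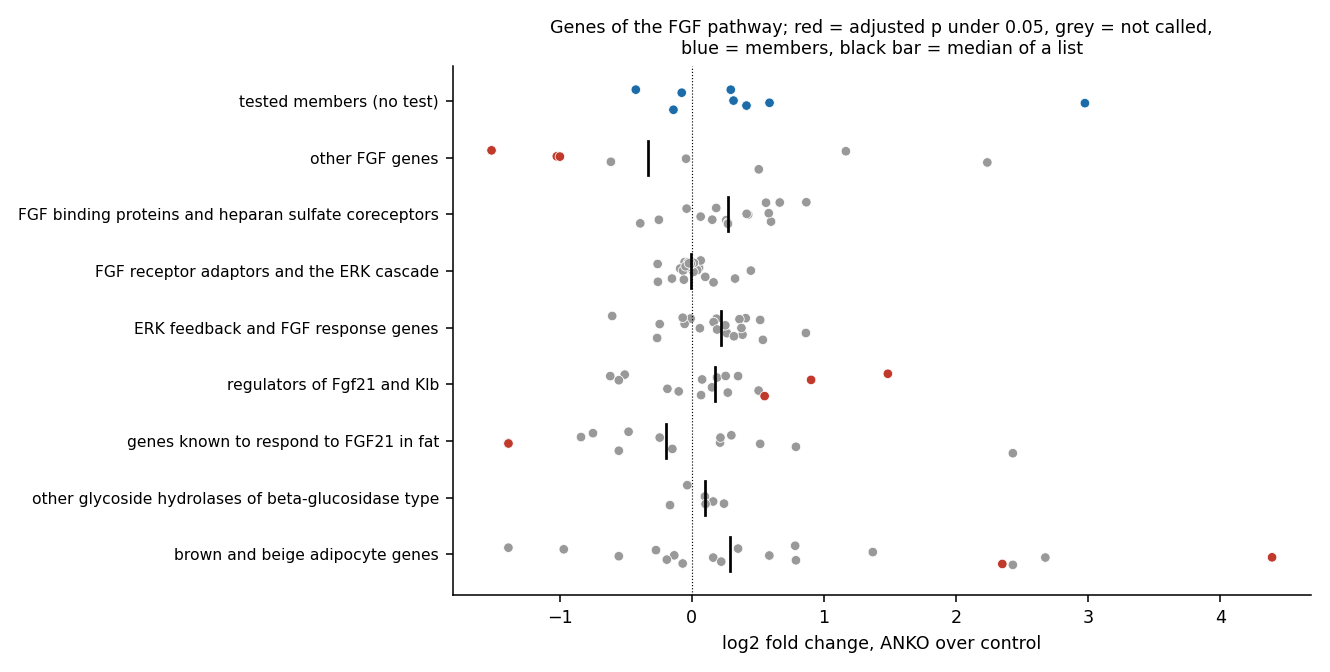
Log2 fold change, ANKO over control (horizontal axis), of the 8 tested members (blue, no test) and of the tested genes of 8 lists (1 row each, black bar for the median of a list), with genes past an adjusted p of 0.05 in red. Lctl stands at 2.97, the 3 red FGF genes lie on the lower side, and the adaptor and feedback rows hold no red point.

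Of 16 tested genes that regulate Fgf21 or Klb, 3 rose and none fell, with an unadjusted p under 0.05 in 5. Over all tested genes 0.488% rose and 1.1% fell. The 3 that rose were stress transcription factors that are known to raise Fgf21. Atf5 rose from 100.4, 90.7 and 99.8 CPM to 198, 354 and 261 CPM in ANKO 1, 2 and 3 (log2 fold change 1.48, SE 0.200, adjusted p = 0.0171). Atf4 rose from 72.8, 81.9 and 79.6 CPM to 106, 125 and 112 CPM (log2 fold change 0.55, SE 0.0916, adjusted p = 0.0304). Ddit3, also known as CHOP, rose from 9.94, 13.1 and 14.7 CPM to 22.6, 26.1 and 21.7 CPM (log2 fold change 0.90, SE 0.164, adjusted p = 0.0418). ANKO 2 was the highest library for all 3, as for Lctl, Fgf21 and Klb, and within ANKO also for the summed adipocyte markers. The lowest ANKO library was ANKO 3 for Ddit3 and ANKO 1 for Atf5, Atf4, Lctl and Fgf21. Atf5 was not called without any 1 control or ANKO 3, Atf4 was called only without ANKO 1 and Ddit3 only without control 3, with highest adjusted p = 0.0930, 0.117 and 0.133. The nuclear receptor genes Pparg and Ppara, the first a known activator of Klb and Fgf1 and the second of Fgf21 in liver, did not pass, with log2 fold changes of -0.51 and 0.35 (adjusted p = 0.430 and 0.602). They are named after their values were seen.

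Genes known to respond to FGF21 in fat differed in both directions. Of 14 tested, 1 fell and none rose, while over all tested genes 1.1% fell and 0.488% rose. An unadjusted p under 0.05 was found for 5, and the log2 fold changes ran from -1.39 to 2.43 with a median of -0.20. The groups did not overlap for 6 of the 14, against 19.4% of all tested genes, with Ucp1 and Cidea higher in ANKO and Adipoq, Lipe, Lep and Ppargc1a lower. Adipoq, Lipe and Lep are also among the 10 adipocyte markers, all of which had negative log2 fold changes. The 1 called gene was adiponectin, Adipoq, from 729.8, 951 and 1002 CPM to 258, 398 and 370 CPM. Its log2 fold change was -1.39 with SE 0.192 (adjusted p = 0.0154), and it is a gene that FGF21 is known to raise. The call was lost when control 2, control 3 or ANKO 3 was omitted, with adjusted p up to 0.0728. The glucose transporter gene Slc2a1, a classical FGF21 response in adipocytes, named after its values were seen, stood at 27.2 to 48.5 CPM in controls and 28.3 to 40.0 CPM in ANKO (log2 fold change -0.15, SE 0.230).

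Lctl is known to be expressed in brown fat, and of 18 tested brown and beige adipocyte genes 2 rose and none fell. Over all tested genes 0.488% rose and 1.1% fell. An unadjusted p under 0.05 was found for 7, and the log2 fold changes ran from -1.39 to 4.39 with a median of 0.29. The groups did not overlap for 7 genes higher and 2 lower in ANKO, against 19.4% of all tested genes in either direction. Acot11, an acyl-CoA thioesterase, rose from 6.35, 5.90 and 7.42 CPM to 24.2, 47.6 and 28.4 CPM (log2 fold change 2.35, SE 0.268, adjusted p = 0.0107). Elovl3, a fatty acid elongase, rose from 0.175 to 0.403 CPM in controls to 4.79, 9.14 and 2.70 CPM in ANKO (log2 fold change 4.39, SE 0.577, adjusted p = 0.0134). Omitting control 2 ended the call of Acot11 (adjusted p = 0.0659), and omitting any 1 control ended that of Elovl3 (adjusted p up to 0.0561). Ucp1, the uncoupling protein that defines brown adipocytes, named after its values were seen, was at 0, 1.66 and 1.24 CPM in controls and 2.61, 7.80 and 5.02 CPM in ANKO (adjusted p = 0.395). Other genes of the list, also named after their values were seen, went in both directions without passing the test. Kcnk3 and Slc27a2 were higher in ANKO and did not overlap between the groups (log2 fold change 1.37 and 2.67, edgeR adjusted p = 0.138 and 0.189). Slc27a2 was rare, with a mean of 0.170 CPM in controls and 1.08 CPM in ANKO. Cox8b, Ppargc1a and Dio2 were lower in ANKO, and Dio2 overlapped between the groups. Cox8b, a mitochondrial respiratory subunit gene, averaged 27.9 CPM in controls and 14.2 CPM in ANKO (log2 fold change -0.97, adjusted p = 0.242). The log2 fold change was -0.55 for the coactivator gene Ppargc1a and -1.39 for the deiodinase gene Dio2 (adjusted p = 0.357 and 0.259). Among 6 tested glycoside hydrolase genes related to the klotho family in fold or substrate, none passed by edgeR or DESeq2 and none had an unadjusted p under 0.05. The smallest p was that of the lysosomal enzyme gene Gusb (log2 fold change 0.24, SE 0.116, adjusted p = 0.443).

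The genes whose levels followed Lctl most closely were sought among the same 16879 genes, by Pearson correlation of log2 CPM over the 6 libraries. Clone-type symbols, such as those with Gm or Rik, and mitochondrial genome genes were left out. The closest of the rest were Eprs, a tRNA synthetase gene (r = 0.998), the actin regulator Coro1c (r = 0.997), Gclm, a subunit of the enzyme that starts glutathione synthesis (r = 0.996), Zfand2a, which is induced by arsenite (r = 0.996), and the lysosomal transporter Mfsd1 (r = 0.995). With each group's mean removed, the correlations were 0.962, 0.958, 0.960, 0.948 and 0.924. Their log2 fold changes were 0.23 to 1.36, below the 2.97 of Lctl. Eprs stood at 130.2 to 136 CPM in controls and 152 to 159.6 CPM in ANKO, and Gclm at 27.1, 30.1 and 32.4 CPM in controls and 59.4, 94.2 and 76.7 CPM in ANKO. For Klb the closest were Ric8a, Isca2, 1 line of Ppp1ca (a symbol with several lines), the ribosomal pseudogene Rps16-ps2 and Tmem135. Their r ran from 0.980 to 0.988, and from 0.984 to 0.997 with the group means removed. The log2 fold changes of these 5 lay between -0.09 and 0.00. The points are 6 libraries in 2 groups searched over many genes, so the values describe likeness in these libraries and carry no test.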

How the data were processed

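STAR 2.0.4b, Subread, featureCounts 1.45 and GRCm38 are named in the submitters' processing notes. Which annotation release and strand setting were used, and how shared reads were treated, is not given in the sources used here. Raw counts of reads for each gene symbol and mouse were deposited by the authors. Groups come from the sample titles. Of 40757 lines, 329 exact repeats were removed, and several lines of 105 symbols were kept apart. No 2 libraries agreed within sampling noise (chi-square per degree of freedom of at least 25.0).

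With edgeR 4.0.16 in R 4.3.3, genes were kept by filterByExpr (minimum count 10, minimum total 15), which left 19272, scaled by TMM and compared by quasi-likelihood F tests (robust=TRUE) with Benjamini-Hochberg adjustment over all tested genes, at a threshold of 0.05. The code was tested on simulated data. SE values follow from the log2 fold change and F. Per-length levels are CPM divided by the kilobases of all exons in GENCODE M21 (GRCm38). Intervals cover counting error only.

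The members and lists were chosen with earlier results of these data known. Named were all members, Nampt, up to 3 called genes of smallest p per list (or the 1 of smallest p where none was called) and the 5 genes most alike to Lctl and to Klb. For the last step, clone-type symbols and mitochondrial genome genes were left out, and CPM under 0.01 was set to 0.01 before taking logs. Of the listed pathway genes, Gba3 matched no feature name. The gene of smallest p among the adaptors and ERK cascade is not reported here. Also run were DESeq2 1.42.0, limma-voom (limma 3.58.1), scaling by RLE or upper quartile, robust=FALSE, other low-count filters, a replicate block, each library left out in turn, and the longest transcript as length.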

Additional observations from a re-analysis of the deposited data

How the results depend on the processing

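Over all genes 306 were called, 94 higher and 212 lower in ANKO. DESeq2 called 886, of which 388 were higher and 498 lower, and no low-count filter gave 464, of which 167 were higher. Leaving out 1 library gave 75 to 256 calls, 20 to 107 higher and 55 to 221 lower, with the fewest without ANKO 3. With the replicate number as a replicate block, 207 genes were called, 62 of them higher. The labels do not say whether the numbers pair the mice. Deviations from the group means correlated at 0.07, -0.03 and -0.04 between same-numbered libraries. Between differently numbered ones they ran from -0.09 to 0.11, so these values show no pairing and cannot exclude one. In the lists, the 3 calls among the other FGF genes became 1 by limma-voom, 0 under the replicate block and 0 to 1 when a library was left out. The 3 among the regulators became 1 under the replicate block and 0 to 2 without a library. The 2 brown and beige calls became 5 by DESeq2, 1 by limma-voom and 0 to 2 without a library. The 1 call among the FGF21 response genes became 2 by DESeq2 and 0 to 1 without a library. Among binding proteins and coreceptors, with 0 calls, DESeq2 gave 1 and leaving out a library 0 to 1. Among adaptors and the ERK cascade, with 0 calls, DESeq2 and no low-count filter each gave 1 and leaving out a library 0. Feedback genes and glycoside hydrolases stayed at 0 under every alternative run. Unless an alternative's own construction gives it (fewer samples), the cause was not tested. Scaling by RLE or upper quartile left all 9 named calls in place. Leaving out 1 library put the log2 fold change of Lctl at 2.65 to 3.24 and the ratio of summed Fgf21 counts at 76.3 to 170.0. At this depth Kl and most other FGF genes lie too low for a comparison.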
